A study of Mus musculus with 12 samples.

Results

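The 9 genes described here encode giant and scaffold proteins of the sarcomere, the contractile unit of striated muscle. They were chosen by name and are Ttn (titin), Neb (nebulin), Nebl (nebulette), Nrap (nebulin-related anchoring protein), Myom1 and Myom2 (myomesins), Mybpc2 and Mybpc3 (myosin-binding protein C) and Ldb3 (a Z-disc protein also called Cypher or ZASP). All 9 were among the 56350 genes of the table and all 9 were among the 13916 genes that passed the filter on low values and were tested. The study sequenced polyadenylated RNA of mouse hearts, from the apex of the left ventricle taken 8 weeks after surgery. The mice had either sham surgery or TAC (transverse aortic constriction), which narrows the aorta and makes the left ventricle pump against a higher pressure.

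Hearts of 4 kinds were compared, each with 3 libraries. Control sham and control TAC came from mice that the labels call both control and lincRNA-p21 heterozygous. Knockout sham and knockout TAC came from littermates that lack lincRNA-p21 in every tissue. lincRNA-p21 (gene symbol Trp53cor1) is a long noncoding RNA known as a target of p53. By their genotype label the controls are not wild type, so no group here shows the heart with 2 intact copies of the gene. The labels give no age, sex or animal number, and p-values therefore measure the spread between these libraries.

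In the sarcomere, titin spans from the Z-disc to the M-band and acts as a molecular spring and a scaffold. Nebulin lines the thin filament of skeletal muscle, while nebulette, a shorter relative found in heart, sits at the Z-disc, and Nrap joins thin filaments to the membrane at the intercalated disc and takes part in myofibril assembly. Myomesins tie thick filaments to titin at the M-band. Myosin-binding protein C lies on the thick filament, and Mybpc3 is its cardiac form and Mybpc2 its fast skeletal form. Ldb3 binds alpha-actinin at the Z-disc.

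Trp53cor1 served as a check of the labels, with 11 reads over the 6 control libraries and 0 over the 6 knockout libraries. Control sham replicate 2 and control TAC replicate 2 were also at 0. With so few reads the check cannot settle the label of any single library. Each library held between 10323605 and 13238934 reads on genes. Of the 15 skeletal muscle markers, Tnnc2 was at 0 in all 12 libraries, Myh4 had 1 read in all and Myog had 2. Myl1 (167 to 325), Casq1 (63.9 to 260.1) and Cacna1s (119.5 to 275) were measured in every library. Mylpf, Tnnt3, Tnni2, Ryr1 and Atp2a1 were also above 0 in every library, with values from 1.08 (Atp2a1) to 61.8 (Ryr1). The 10 cardiomyocyte markers summed to between 876490 and 1237220 in each library. On the second principal component (14.4% of the variance) control sham replicate 3 scored 46.8, beside −5.63 and −8.75 for replicates 1 and 2 of its group. Knockout TAC replicate 3 scored 15.6, beside −22.9 and −33.7 for replicates 1 and 2 of its group. The other 10 libraries lay between −33.7 and 9.34. Both replicates 3 are called below the libraries that stand apart, and they had the lowest voom quality weights of the 12 (0.2064 and 0.4275).

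Values below are normalised read counts, that is, reads divided by a size factor for each library. Values per sample are in the order of replicates 1, 2 and 3, and group levels are means ± SD with n = 3. A change is a difference of log2(value + 1) ± SE from limma-trend, with p-values adjusted over all 13916 tested genes by the Benjamini-Hochberg method and called under 0.05. The +1 shrinks the change of a gene with few reads, and a difference of mean logs can lie above or below the log of a ratio of means.

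TAC raised 7 of the 9 genes in controls and none passed the test in knockouts. In controls 21.6% of all tested genes were called, 11% higher and 10.6% lower, and the median change of the 9 genes was 0.95 beside 0.01 over all tested genes. In knockouts 0.00719% of tested genes were called after TAC, and the median of the 9 genes was 0.09 beside −0.01 over all genes. The knockout count of 0 had 2 genes, Nrap and Mybpc2, at an unadjusted p under 0.05, as had 6.68% of tested genes. edgeR also called 0 of the 9, DESeq2 called 1 (Mybpc2) and voom with quality weights called 2 (Mybpc2 and Nrap). In bulk tissue a change in the number of cells of a type and a change in RNA per cell cannot be told apart.

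**Figure D1:**
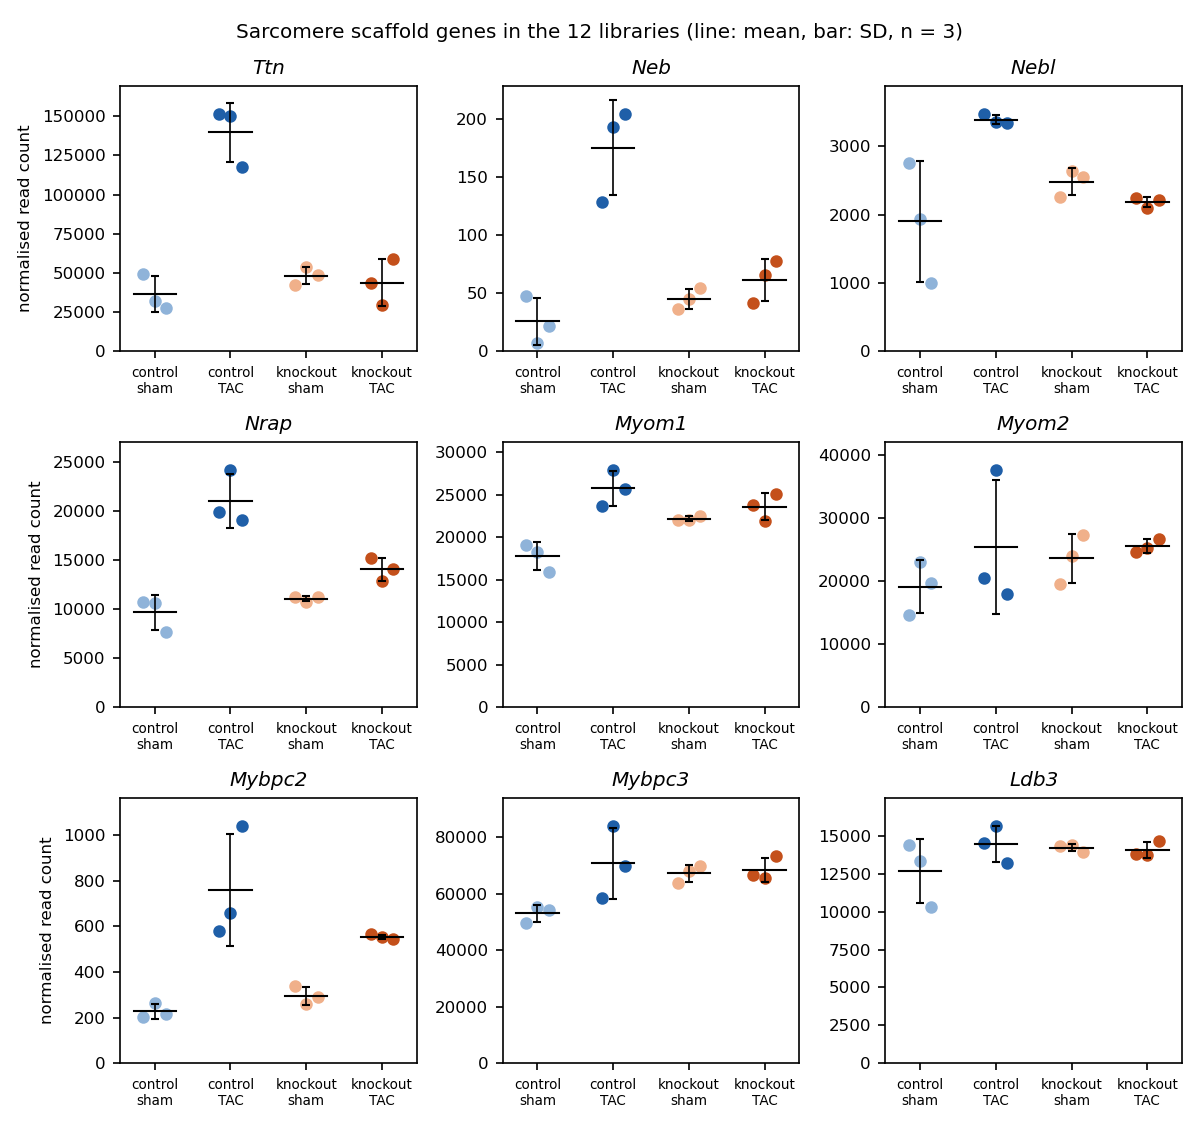
Normalised read count of each of the 9 genes (vertical axes, each starting at 0) in the 12 libraries, grouped by genotype and surgery on the horizontal axes. Points are libraries, and lines with bars are the mean and SD of 3 libraries. The control TAC libraries lie above all control sham libraries in every panel other than Myom2 and Ldb3, a pattern shared by 17.7% of tested genes.

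Ttn (ENSMUSG00000051747.14) lies on the minus strand at chr2:76703980-76982547 of GRCm38, and its longest transcript has 347 exons. Its merged exons cover 116.8 kb, counting every annotated exon once whether or not the heart uses it.

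The normalised count of Ttn in control sham libraries was 49416, 32310 and 27736. In control TAC it was 151091, 149887 and 117843. In knockouts it was 42541, 53491 and 48662 after sham and 43565, 29288 and 58798 after TAC. The 3 control TAC libraries stood above the other 9, which overlapped across their 3 groups. Over all tested genes 17.7% had every control TAC library above every control sham library. The share above all 9 other libraries was not counted.

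Ttn reads made up 0.319% ± 0.084 of all reads in control sham, 1.22% ± 0.158 in control TAC, 0.405% ± 0.0498 in knockout sham and 0.362% ± 0.126 in knockout TAC. TAC in controls raised Ttn by 1.97 ± 0.24 (adjusted p = 0.000149), a ratio of means of 3.83. In knockouts the difference was −0.19 ± 0.24 (adjusted p = 0.918). After TAC, Ttn was lower in knockouts than in controls by a change of −1.72 ± 0.24 (adjusted p = 0.00117). After sham the genotypes differed by 0.44 ± 0.24 (adjusted p = 0.934), which did not pass.

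The TAC effect on Ttn differed between genotypes by −2.16 ± 0.33 (knockouts minus controls, adjusted p = 0.0137). Ttn was the only member of the 9 called in that test, where 0.295% of tested genes were called lower. That call was lost without control sham replicate 3 (−1.98, adjusted p = 0.0636), without control TAC replicate 2 (−2.10, adjusted p = 0.0589) and with no filter on low values (adjusted p = 0.0684). Over all tested genes 0.309% were called in that test and 0.0144% were called higher. All 9 genes had a difference below 0, with a median of −0.78 beside −0.001 over all genes, and 6 had an unadjusted p under 0.05, as had 16.5% of tested genes.

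Neb, at chr2:52136647-52378474 (minus strand), had few reads. Its values were 48, 8 and 22 in control sham and 129, 194 and 204 in control TAC. In knockouts they were 37, 45 and 54 after sham and 42, 65 and 77 after TAC. The control TAC libraries stood above the other 9, and 17.7% of tested genes had them above all control sham libraries. These values came from 8 to 45 reads per library in control sham and 119 to 219 in control TAC.

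Neb rose by 3.02 ± 0.47 after TAC in controls (adjusted p = 0.000935), the largest change among the 9 genes and a ratio of means of 6.79. In knockouts its difference was 0.41 ± 0.47 (adjusted p = 0.911). Between genotypes after TAC it was −1.52 ± 0.47 (adjusted p = 0.0582), above the threshold here and under it with edgeR (0.0247) and DESeq2 (0.00217). The difference of its TAC effects was −2.61 ± 0.66 (adjusted p = 0.0954).

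Of 15 skeletal muscle markers 7 passed the filter, and 0 of these were called after TAC in controls. The summed value of the list was between 542 and 638 in control sham and between 478 and 683 in control TAC.

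Nebl, at chr2:17343909-17731464 (minus strand), was at 2762, 1933 and 1004 in control sham and 3465, 3360 and 3340 in control TAC. It rose by 0.95 ± 0.25 in controls (adjusted p = 0.015), and by 0.55 without control sham replicate 3 (adjusted p = 0.00813). In knockouts its values were 2255, 2636 and 2548 after sham and 2236, 2101 and 2217 after TAC, a difference of −0.18 ± 0.25 (adjusted p = 0.925). All knockout TAC libraries lay below all knockout sham libraries, which held for 8.87% of tested genes. Its control sham libraries spread widely, with the lowest value in replicate 3, while the control TAC libraries were close to each other. The call in controls was lost when only the 6 control libraries were fitted (adjusted p = 0.0706).

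Nrap, at chr19:56320035-56390037 (minus strand), was at 10759, 10627 and 7658 in control sham and 19890, 24163 and 19063 in control TAC. In knockouts it was at 11205, 10790 and 11230 after sham and 15239, 12884 and 14093 after TAC. Within each genotype every TAC library lay above every sham library, which held for 17.7% of tested genes in controls and 8.31% in knockouts. Every knockout TAC library lay below every control TAC library, which held for 15.5% of tested genes.

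Nrap rose by 1.13 ± 0.15 in controls (adjusted p = 0.00017). Its difference in knockouts was 0.34 ± 0.15 (adjusted p = 0.705). After TAC it was lower in knockouts, by a change of −0.58 ± 0.15 (adjusted p = 0.0242), where 8.23% of tested genes were called, 4.13% lower and 4.1% higher. Ttn and Nrap were the 2 of the 9 genes called there. The Nrap call was lost without control TAC replicate 1 (adjusted p = 0.0662) or 2 (0.119) and without knockout TAC replicate 1 (0.0664) or 2 (0.125). The difference of the TAC effects on Nrap was −0.79 ± 0.21 (adjusted p = 0.0963).

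The pair of nebulin and nebulette was also compared within each library, where the library's scaling cancels. The log2 ratio of Neb to Nebl was −6.36 ± 1.27 in control sham, −4.29 ± 0.39 in control TAC, −5.76 ± 0.20 in knockout sham and −5.17 ± 0.48 in knockout TAC. Over both genotypes it was 1.33 higher after TAC (two-sided exact permutation test within genotype, 400 permutations, p = 0.01, adjusted p = 0.03 over 6 ratio tests). Without control TAC replicate 2 or 3 the adjusted p was 0.075, with differences of 1.28 and 1.26. In controls the TAC ratios (−4.74 to −4.03) lay above the sham ratios (−7.81 to −5.45). The lowest of these came from control sham replicate 2, with 8 Neb reads. In knockouts the ratios overlapped, at −5.91 to −5.53 after sham and −5.72 to −4.82 after TAC. Between genotypes the ratio differed by −0.14 (exact permutation p = 0.8, adjusted p = 0.8).

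Myom1, at chr17:71002633-71126856 (plus strand), was at 19132, 18293 and 15901 in control sham and 23702, 27837 and 25685 in control TAC. It rose by 0.54 ± 0.12 in controls (adjusted p = 0.00602), a ratio of means of 1.45. In knockouts it ranged from 21954 to 22499 after sham and from 21899 to 25102 after TAC, a difference of 0.09 ± 0.12 (adjusted p = 0.925). After sham every knockout library lay above every control library (as in 4.94% of tested genes), while the change of 0.32 ± 0.12 did not pass (adjusted p = 0.934).

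Myom2, at chr8:15057653-15133541 (plus strand), did not pass in any comparison. Its values were 14665, 23148 and 19677 in control sham and 20610, 37612 and 18005 in control TAC, and these groups overlapped. Control TAC replicate 2 held the highest value of all 12 libraries. The change in controls was 0.35 ± 0.23 (adjusted p = 0.295). In knockouts values ran from 19568 to 27365 after sham and from 24677 to 26767 after TAC.

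The log2 ratio of Myom2 to Myom1 was 0.09 ± 0.41 in control sham, −0.09 ± 0.48 in control TAC, 0.08 ± 0.23 in knockout sham and 0.12 ± 0.08 in knockout TAC. It differed by −0.07 between TAC and sham (two-sided exact permutation test, p = 0.75, adjusted p = 0.8) and by 0.10 between genotypes (exact permutation p = 0.575, adjusted p = 0.8).

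Mybpc2, at chr7:44501699-44524656 (minus strand), was at 205, 265 and 215 in control sham and 580, 656 and 1037 in control TAC. In knockouts it was at 337, 260 and 289 after sham and 564, 551 and 543 after TAC. In both genotypes the TAC libraries stood above the sham libraries, which held for 17.7% of tested genes in controls and 8.31% in knockouts. The knockout TAC libraries stood below the control TAC libraries, which held for 15.5% of tested genes.

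Mybpc2 rose by 1.69 ± 0.18 in controls (adjusted p = 4.205e-05), a ratio of means of 3.32. In knockouts the difference was 0.91 ± 0.18, a ratio of means of 1.87, with an adjusted p of 0.403 and an unadjusted p of 0.000129. It was called there by DESeq2 (adjusted p = 0.0174), by voom with quality weights (0.00218) and when only the knockout libraries were fitted (0.00928). The difference of the TAC effects was −0.78 ± 0.26 (adjusted p = 0.163) and the difference between genotypes after TAC was −0.41 ± 0.18 (adjusted p = 0.178), neither of which passed.

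Mybpc3, at chr2:91118144-91136516 (plus strand), was at 49524, 55308 and 54270 in control sham and 58630, 83812 and 69873 in control TAC. Its change in controls was 0.40 ± 0.13 (adjusted p = 0.0412), close to the threshold. That call was lost in 9 of the 12 fits that left out a library (adjusted p up to 0.207, without control TAC replicate 2) and when only the control libraries were fitted (0.137). In knockouts Mybpc3 ranged from 63806 to 69778 after sham and from 65559 to 73329 after TAC, a difference of 0.03 ± 0.13 (adjusted p = 0.98).

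The log2 ratio of Mybpc2 to Mybpc3 was −7.86 ± 0.14 in control sham and −6.58 ± 0.47 in control TAC, and −7.83 ± 0.24 in knockout sham and −6.95 ± 0.11 in knockout TAC. It was 1.09 higher after TAC over both genotypes (two-sided exact permutation test within genotype, p = 0.005, the smallest that 400 permutations can give, adjusted p = 0.03). In each genotype all TAC libraries lay above all sham libraries in this ratio. Between genotypes it differed by −0.17 (exact permutation p = 0.365, adjusted p = 0.73).

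**Figure D2:**
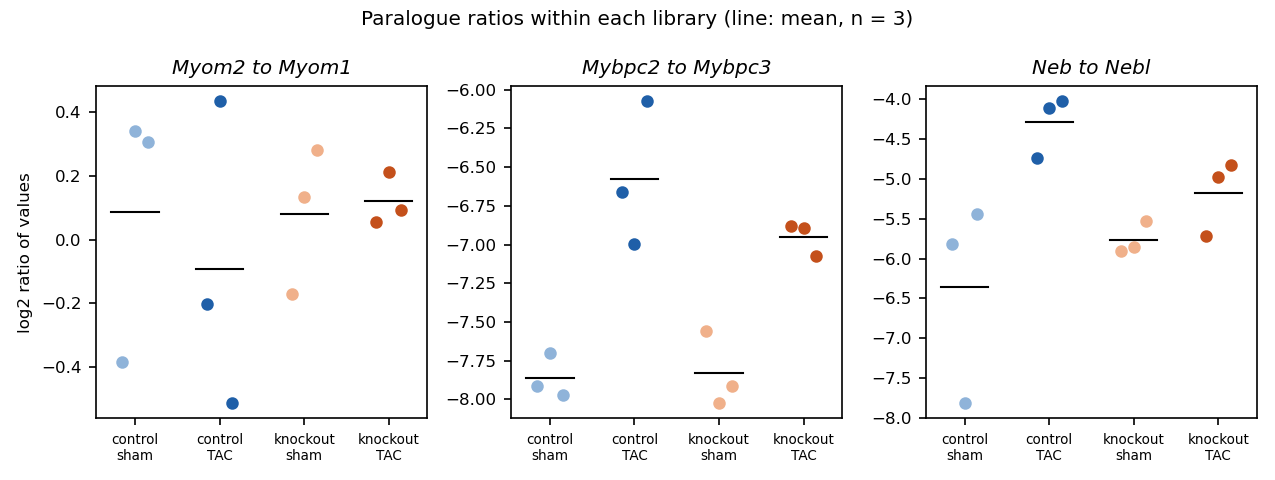
Log2 ratio of paired related genes (vertical axes) in each of the 12 libraries by group, with the mean of 3 libraries as a line. The TAC libraries lie above the sham libraries of the same genotype for Mybpc2 to Mybpc3, while the groups overlap for Myom2 to Myom1. For Neb to Nebl the surgeries are apart in controls and overlap in knockouts.

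Ldb3, at chr14:34526603-34588682 (minus strand), was at 14372, 13304 and 10326 in control sham and 14514, 15612 and 13220 in control TAC. In knockouts it ranged from 13937 to 14382 after sham and from 13719 to 14650 after TAC. Its change in controls was 0.20 ± 0.13 (adjusted p = 0.293), and in knockouts −0.02 ± 0.13 (adjusted p = 0.986). No comparison of Ldb3 passed.

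Per length, Mybpc3 was the most abundant of the 9 genes in control sham, at 1126 ± 128 RPKM, that is, reads scaled to merged exon length in kb and to library depth. Myom2 (191 ± 45.2), Ldb3 (182 ± 17.6), Nrap (154 ± 17.0) and Myom1 (149 ± 3.94) followed on the same scale, with overlapping ranges between neighbours. Ttn was at 27.3 ± 7.20, Nebl at 10.8 ± 4.45, Mybpc2 at 5.57 ± 0.729 and Neb at 0.0853 ± 0.0640, with no overlap between neighbours. In control TAC, Ttn reached 104.8 ± 13.5 RPKM.

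After sham surgery the genotypes did not differ by the test in any of the 9 genes, and in 0% of tested genes. All 9 changes (knockout minus control) were above 0, from 0.18 for Ldb3 to 1.10 ± 0.47 for Neb, with a median of 0.34 beside 0.03 over all genes. With a library left out Neb ran from 0.44 (without control sham replicate 2) to 1.70 (without control sham replicate 1) and Ldb3 from 0.039 (without control sham replicate 3) to 0.28. The adjusted p was 0.934 for each, and 3 genes (Neb, Myom1 and Mybpc3) had an unadjusted p under 0.05, as had 4.34% of tested genes. edgeR, DESeq2 and voom also called 0 of the 9. For Nrap, Myom1 and Mybpc3 all knockout libraries lay above all control libraries, which held for 4.94% of tested genes (the reverse held for 4.68%). Control sham replicate 3 was the lowest control sham library for Ttn, Nebl, Nrap, Myom1 and Ldb3.

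After TAC, 5 of the 9 genes (Ttn, Neb, Nebl, Nrap and Mybpc2) had every knockout library below every control library, which held for 15.5% of tested genes (the reverse for 15.6%). The change between genotypes was −0.63 ± 0.25 for Nebl (adjusted p = 0.123), −0.13 ± 0.12 for Myom1 (0.551), 0.09 ± 0.23 for Myom2 (0.855), −0.03 ± 0.13 for Mybpc3 (0.905) and −0.04 ± 0.13 for Ldb3 (0.89). These comparisons with control TAC and the TAC effect in controls share the same 3 libraries, so they are not independent of each other.

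**Figure D3:**
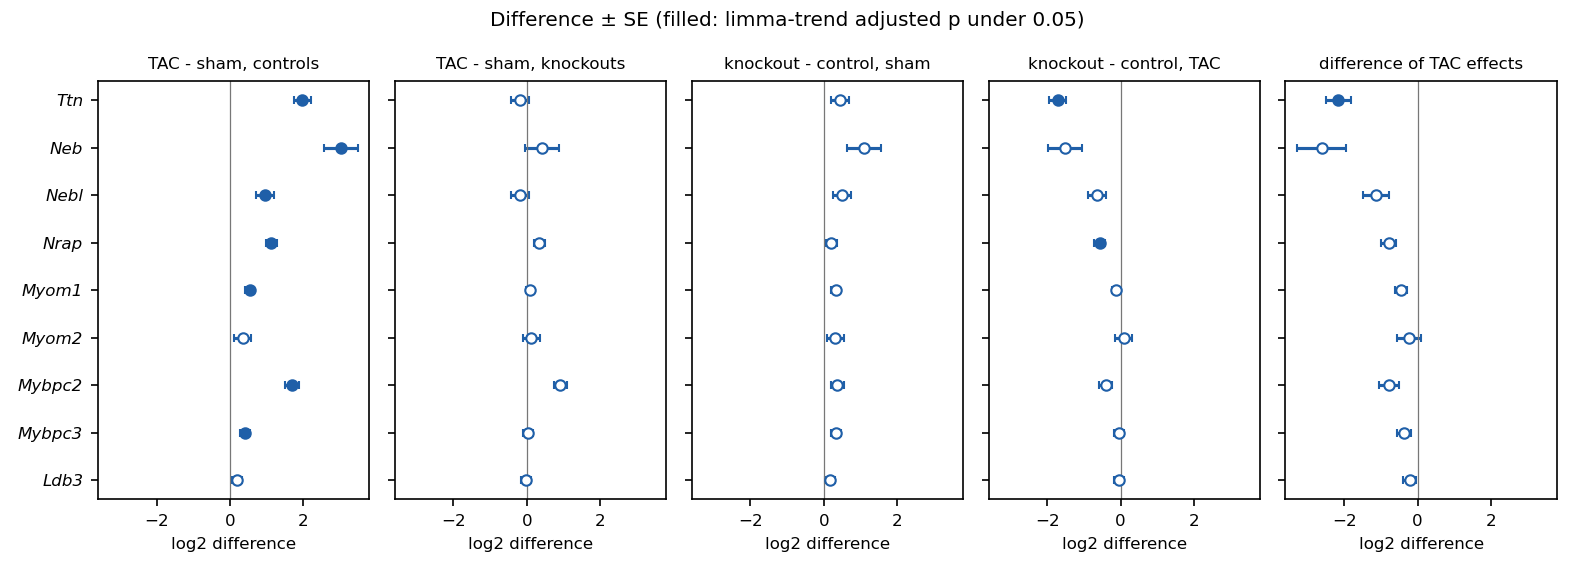
Change of each of the 9 genes (difference of log2(value + 1) ± SE, horizontal axis) in the comparisons tested. Filled points have an adjusted p under 0.05. TAC in controls has 7 filled points, the knockout comparison with controls after TAC has 2, and the difference of TAC effects has 1, Ttn.

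Across genes, the change after TAC in controls grew with transcript length. The median change was −0.38 for the 529 tested genes under 1 kb, −0.13 for 4159 genes of 2 to 4 kb (the class of Mybpc2), 0.08 for 5203 genes of 4 to 8 kb (Nrap, Mybpc3 and Ldb3), 0.31 for 2150 genes of 8 to 16 kb (Nebl, Myom1 and Myom2) and 0.58 for 291 genes over 16 kb (Ttn and Neb). In the longest class 55.0% of genes were called higher in controls. In knockouts after TAC the median of that class was −0.01.

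Spearman's rho of the change with merged exon length over genes was 0.391 for TAC in controls, 0.00652 for TAC in knockouts, 0.0901 for the genotypes after sham, −0.436 for the genotypes after TAC and −0.421 for the difference of the TAC effects. Genes are not independent replicates, and these values are a description. The changes also moved with GC content, with rho −0.437 for TAC in controls and −0.355 in knockouts.

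The trend was present library by library. The median deviation of genes over 16 kb from their mean over the 12 libraries was 0.43, 0.44 and 0.34 in the control TAC libraries and between −0.33 and 0.08 in the other 9.

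**Figure D4:**
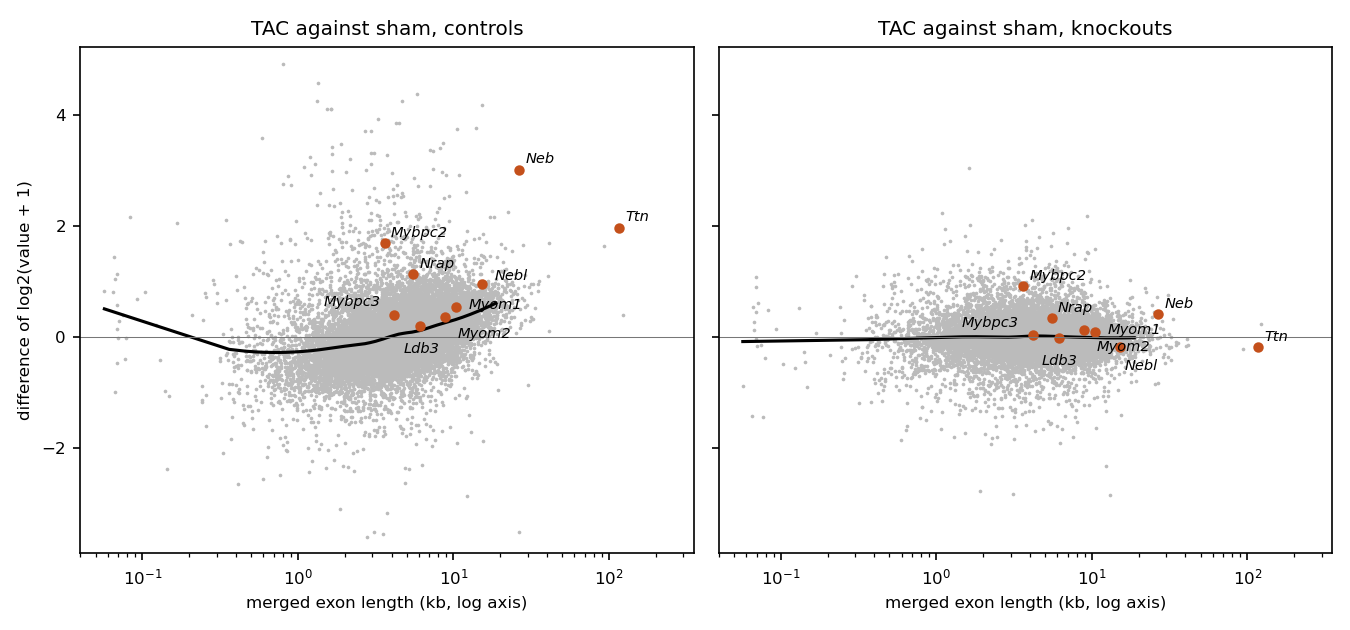
Change after TAC (difference of log2(value + 1), vertical axis) of every tested gene against merged exon length in kb (log axis) in controls and in knockouts. Grey points are genes, orange points the 9 sarcomere genes and the black line a loess curve, drawn to the length at which longer genes were capped (18.73 kb). In controls the curve falls among the shortest genes and climbs with length from about 0.73 kb. In knockouts it stays nearly flat.

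Beside this trend the 9 genes lay at different distances from the line for their length. Mybpc2 (3.61 kb, change 1.69 with the loess line at −0.03) and Nrap (5.51 kb, 1.13 with the line at 0.09) rose in controls by more than the line at their length. Ttn (1.97 with the line at 0.61) and Neb (3.02 with the line at 0.61) lay above a line that was itself raised. Nebl (0.95 with the line at 0.49) and Mybpc3 (0.40 with the line at 0.03) lay above it by 0.46 and 0.37. Myom1 (0.54, line at 0.32), Myom2 (0.35, line at 0.26) and Ldb3 (0.20, line at 0.12) lay above it by 0.22, 0.10 and 0.08. Among the 291 genes over 16 kb, 0 had a larger change in controls than Neb and 4 had a larger change than Ttn.

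The trend was then removed from each library and the genes tested again. Over all 13906 genes of that fit, TAC in controls called 774 higher and 1310 lower. In controls 4 of the 9 genes remained called: Ttn (1.36 ± 0.16, adjusted p = 0.000122), Neb (2.41 ± 0.42, adjusted p = 0.00208), Nrap (1.04 ± 0.13, adjusted p = 0.000266) and Mybpc2 (1.72 ± 0.18, adjusted p = 6.816e-05). Nebl (0.46, adjusted p = 0.169), Myom1 (0.22, adjusted p = 0.162) and Mybpc3 (0.37, adjusted p = 0.0514) lost their calls. With the length and GC trend removed Nebl and Myom1 lost theirs and Mybpc3 did not. Between genotypes after TAC, Ttn stayed lower in knockouts (−1.19, adjusted p = 0.00129) and so did Nrap (−0.51, adjusted p = 0.0439). In that comparison 207 of 13906 genes were called lower and 343 higher. Nrap was not called there with the length and GC trend removed (adjusted p = 0.0614) or with the trend on the longest transcript removed (−0.38, adjusted p = 0.121). The difference of TAC effects stayed called for Ttn (−1.53, adjusted p = 0.0123), where 16 of 13906 genes were called, all lower.

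Ttn is far longer than nearly all other genes, and its own value depends on how the line is drawn there: 3 tested genes exceed 50 kb and 19 exceed 30 kb. With lengths uncapped, a setting added after the data were seen, the change of Ttn in controls was 0.70 (adjusted p = 0.00324) and the change between genotypes after TAC was −0.64 (adjusted p = 0.0177). The difference of its TAC effects was −0.86 (adjusted p = 0.112) and was no longer called.

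**Figure D5:**
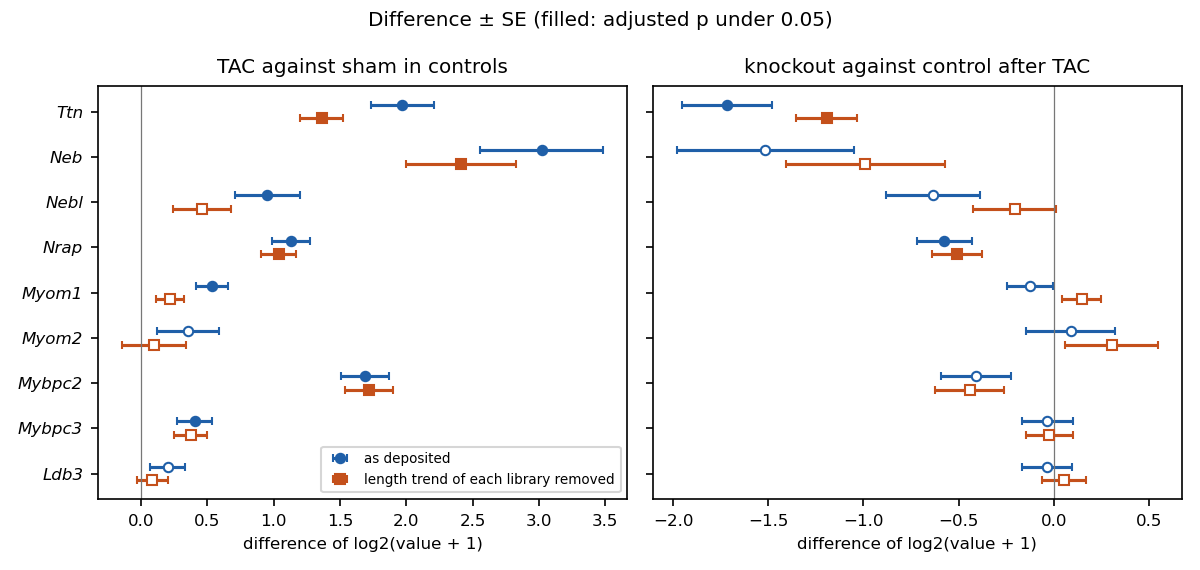
Change ± SE of the 9 genes (difference of log2(value + 1), horizontal axis) for TAC in controls and for the genotypes after TAC, from the deposited values (blue) and after the length trend of each library was removed (orange). Filled points have an adjusted p under 0.05. Ttn, Neb, Nrap and Mybpc2 stay filled in controls, and Ttn and Nrap stay filled between genotypes.

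Other very long transcripts, picked by their length after values were seen, differed in how much they changed in controls. Kcnq1ot1, a noncoding RNA of 93.1 kb, rose by 1.65 ± 0.23 (adjusted p = 0.000331), Dst, encoding dystonin, a cytoskeletal linker, rose by 1.69 ± 0.19 (adjusted p = 5.396e-05) and Syne1, encoding a nuclear envelope linker, by 1.10 ± 0.20 (adjusted p = 0.00197). Of the 6 longest tested genes, the other two besides Ttn carry clone names, with lengths of 123 and 41.3 kb, and did not pass (changes of 0.39, adjusted p = 0.109, and 0.10, adjusted p = 0.863). With lengths uncapped Kcnq1ot1 (adjusted p = 0.108) and Syne1 (0.265) were no longer called.

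To set sequence beside genes that rose beyond the length line (Ttn, Nrap and Mybpc2) and genes that changed less (Mybpc3 and Ldb3), the 250 bases upstream of the start are shown for each, 5′ to 3′ on the gene's strand, from RefSeq with GRCm38.p6 coordinates. Capitals mark matches on either strand to MEF2 or CArG motifs (both searched by name, as their patterns hold ambiguous letters) or to 3 shorter motifs. The MCAT motif was spelled CATTCC, the GATA motif was spelled AGATAA, and the TATA box was spelled TATAAA. Promoters were found for 7 of the 9 genes.

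Ttn: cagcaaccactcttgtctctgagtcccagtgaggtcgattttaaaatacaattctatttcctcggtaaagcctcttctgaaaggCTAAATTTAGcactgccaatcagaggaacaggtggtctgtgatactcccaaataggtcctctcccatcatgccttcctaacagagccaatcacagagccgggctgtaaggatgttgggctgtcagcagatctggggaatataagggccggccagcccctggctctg
Nrap: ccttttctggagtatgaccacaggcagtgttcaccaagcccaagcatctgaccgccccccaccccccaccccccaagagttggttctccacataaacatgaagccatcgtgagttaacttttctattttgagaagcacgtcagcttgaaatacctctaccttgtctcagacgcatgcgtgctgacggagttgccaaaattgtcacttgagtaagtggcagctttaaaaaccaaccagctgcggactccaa
Mybpc2: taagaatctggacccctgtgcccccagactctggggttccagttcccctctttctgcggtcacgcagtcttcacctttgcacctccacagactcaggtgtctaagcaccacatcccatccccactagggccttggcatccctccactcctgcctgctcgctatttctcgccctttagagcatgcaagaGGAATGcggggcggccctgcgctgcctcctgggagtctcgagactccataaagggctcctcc
Mybpc3: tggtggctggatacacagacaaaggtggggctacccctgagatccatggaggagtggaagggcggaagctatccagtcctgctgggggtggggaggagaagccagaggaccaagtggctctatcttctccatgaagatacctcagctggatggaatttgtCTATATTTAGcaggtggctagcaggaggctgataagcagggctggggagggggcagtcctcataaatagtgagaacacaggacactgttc
Ldb3: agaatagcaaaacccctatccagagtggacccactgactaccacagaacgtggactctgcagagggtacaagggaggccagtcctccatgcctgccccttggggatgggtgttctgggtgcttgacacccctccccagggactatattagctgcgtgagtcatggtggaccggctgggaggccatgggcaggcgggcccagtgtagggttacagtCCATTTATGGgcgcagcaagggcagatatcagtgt

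The Ttn window (chr2:76982548-76982797, minus strand) and the Mybpc3 window (chr2:91117894-91118143, plus strand) each held a MEF2 match, a motif found in 2.92% of 32851 promoter windows of the same length. The Ldb3 window (chr14:34588682-34588931, minus strand) held a CArG match (1.47% of windows), and the Mybpc2 window (chr7:44524670-44524919, minus strand) an MCAT match (12.6%). The Nrap window (chr19:56390039-56390288, minus strand) held no match. Nebl and Myom1 also had promoter windows, which are not printed. The Myom1 window held a CArG and a GATA match (GATA in 9.99% of windows). Among the windows of the several Nebl starts there were CArG, MCAT and GATA matches. A match is a description of the letters and not a measured site. The changes of Ttn and Mybpc3 after TAC in controls were 1.97 and 0.40. With the length trend removed they were 1.36 (0.70 with lengths uncapped) and 0.37. The part of any motif in these changes was not tested.

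In the lists of sarcomere genes beyond the 9, TAC in controls called 25 higher and 8 lower of 72 tested (of 78 listed), with a median of 0.20. Over all tested genes 11% were called higher and 10.6% lower, and the counts of the lists that follow stand beside these shares. In knockouts after TAC 0 were called in either direction. After TAC 7 were higher and 9 lower in knockouts than in controls, where 4.1% and 4.13% of tested genes were called higher and lower.

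Thick filament genes had 3 higher and 2 lower of 8 in controls. Myh7, the slow or fetal myosin heavy chain, rose by 3.50 ± 0.26 (adjusted p = 3.403e-06), and the atrial light chains Myl4 (2.59 ± 0.31, adjusted p = 9.206e-05) and Myl7 (3.58 ± 0.72, adjusted p = 0.00364) rose too. Myl2, the ventricular light chain, fell by 0.61 on the log2 scale (adjusted p = 0.0109), a call lost without control TAC replicate 1 (adjusted p = 0.0543).

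Thin filament genes had 2 higher and 4 lower of 14. Acta1, skeletal alpha-actin, rose by 4.11 ± 0.37 (adjusted p = 6.701e-05). Tnnt1, the slow skeletal troponin T, changed by −1.54 ± 0.20 (adjusted p = 0.000191), Tnni3, cardiac troponin I, by −0.98 ± 0.14 (adjusted p = 0.000329) and Tpm1, alpha-tropomyosin, by −0.54 ± 0.11 (adjusted p = 0.00332).

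Z-disc genes had 12 higher and 1 lower of 25. Ankrd1, a stretch-responsive titin-binding protein, rose by 2.53 ± 0.19 (adjusted p = 1.374e-06) and Xirp2, an actin-binding repeat protein, by 2.61 ± 0.21 (adjusted p = 2.999e-06). Synpo2l (1.72 ± 0.20, adjusted p = 6.701e-05) and Ankrd23 (1.68 ± 0.21, adjusted p = 0.000164), a relative of Ankrd1, rose too. With the length trend removed 10 of the 25 were called higher, beside 774 of 13906 genes in that fit.

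Genes of the M-band and titin partners had 4 higher and 1 lower of 15. Myom3, the third myomesin, rose by 0.99 ± 0.23 (adjusted p = 0.00764). Trim55, a titin-binding ubiquitin ligase, rose by 0.63 ± 0.16 (adjusted p = 0.0125), lost without control TAC replicate 2 (0.0599). Ckm, muscle creatine kinase, changed by −0.44 ± 0.13 (adjusted p = 0.025), lost with the length trend removed (0.0623) and in 4 fits that left out a library (0.0512 to 0.0979).

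Among other members of the nebulin and MyBP-C families only Lasp1 passed the filter, and its change was −0.27 ± 0.19 (adjusted p = 0.332). Splicing regulators that act on sarcomere transcripts had 4 higher and 0 lower of 9 in controls. Celf2 rose by 0.88 ± 0.18 (adjusted p = 0.00369), Mbnl2 by 0.80 ± 0.18 (adjusted p = 0.00559) and Qk by 0.75 ± 0.19 (adjusted p = 0.0137). Rbm20, a regulator of titin splicing, rose by 0.42 ± 0.14 (adjusted p = 0.0367). With the length trend removed none of the 9 was called (Rbm20 0.27, adjusted p = 0.133), and Rbm20 was also lost in 6 fits that left out a library. With the length and GC trend removed 1 of the 9, Rbm20, was called higher. Over all 13906 genes, 774 were called higher with the length trend removed and 627 with the length and GC trend removed.

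Several cell type markers moved with TAC in controls. All 5 tested atrial markers rose, with summed values of 305 to 772 in control sham and 2855 to 6211 in control TAC (823 to 869 and 1249 to 1953 in knockouts). Of 8 fibroblast markers 3 rose. Of 6 mesothelial markers 5 fell, with summed values of 209 to 511 in control sham and 57.8 to 193 in control TAC, and 3 of 5 erythroid markers fell. Of 10 cardiomyocyte markers 2 rose and 4 fell, 2 of 6 smooth muscle and 1 of 8 endothelial markers fell, and 0 of 6 macrophage markers were called.

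Between genotypes after TAC, where Ttn and Nrap were lower in knockouts, 4 of 5 atrial and 5 of 8 fibroblast markers were lower too. Of 10 cardiomyocyte markers 5 were higher and 1 lower in knockouts, and 2 of 6 mesothelial and 2 of 5 erythroid markers were higher. Mitochondrial genes took 19.06% to 19.99% of reads in knockout TAC and 15.5% to 17.1% in control TAC. The part of these markers and reads in the changes of the 9 genes was not tested.

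As a description over the 12 libraries, the genes with the highest Pearson r of log2(value + 1) to each of the 9 were listed, leaving out predicted genes. For Ttn they included Dst (r = 0.992) and Akap9 (0.982), with merged exon lengths of 41.2 and 21.4 kb. For Nrap they were Xirp2 (0.987), Zfyve16 (0.980) and Rabep1 (0.975). For Mybpc2 they were Lrrcc1 (0.955), Klhl34 (0.946) and Acta1 (0.926). For Neb they were Myo9a (0.945), Cyb5d1 (0.933) and Ttc39b (0.929). These libraries share the TAC groups and the length trend.

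For Nebl the nearest were Pdpr (0.986), Zyg11b (0.979) and Cdh2 (0.979), and for Ldb3 Ehbp1 (0.960), Zdhhc9 (0.948) and Hsd17b7 (0.944). For Myom1 they were Trip4 (0.951), Nexn (0.947) and Eif2s3y (0.941). For Myom2 (Ube2t 0.896, Iqgap3 0.870, Tdp1 0.852) and Mybpc3 (Nt5c2 0.879, Pkd2l2 0.853, Ehbp1l1 0.845) the highest values were lower.

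Exons of neighbouring genes overlap some of the 9, and the strand setting of the counting is not given in the sources used here. Habp2 shares 268 bases with Nrap on the other strand and had a normalised count of at most 115. Myl12a shares 207 bases with Myom1 on the other strand, with means of 2319 in control sham and 2911 in control TAC (change 0.33 ± 0.15, adjusted p = 0.12). Reads in these shared bases are uncertain.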

How the data were processed

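The 12 libraries of polyadenylated RNA form 4 groups of 3. The submitters' processing notes name STAR, SAMtools and featureCounts and the build GRCm38.p6; for versions, annotation and strand setting the sources used here give nothing. The deposited signal values were made by the authors by dividing reads by a size factor per library: all values were whole multiples of a step within 0.01, which gave back whole reads, whose median-of-ratios factors match the authors' (largest difference 6.6e-11). Recovered reads numbered 10323605 to 13238934 per library, which limits the precision of rare genes.

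Of 56350 Ensembl IDs, 55480 matched GENCODE M21, the source of symbols, coordinates and merged exon lengths. Genes that reached a value of 10 in 3 or more libraries entered limma-trend (limma 3.58.1, R 4.3.3, robust) on log2(value + 1), with 4 group means, all 12 libraries and 5 contrasts, Benjamini-Hochberg at 0.05. Ratios were compared by exact permutation. The length trend was removed per library by loess (span 0.5, lengths capped at the 99th percentile, 18.73 kb); 99.93% of tested genes had length and GC content. Alternatives were edgeR 4.0.16, DESeq2 1.42.0, voom, other scalings, filters and pseudocounts (0.5 and 5), a block for replicate number, the groups compared alone, and each library left out. Tables and plots used Python 3.11.15. The fit and the removal of the length trend were also run on simulated counts, and the outcome is not given here.

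All 9 members were named in every comparison, with up to 4 genes of each list by smallest p in controls, Rbm20, the 3 genes most correlated with each member, genes with overlapping exons and Trp53cor1; the very long genes were added after values were seen. A few genes named by this rule are not reported here. Members and lists were chosen with earlier results of these data known. Libraries of a group differed by more than counting noise, so none was counted as a duplicate.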

Additional observations from a re-analysis of the deposited data

Results flagged for a closer look

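The effect of TAC on Ttn differed between the genotypes by −2.16 (log2, knockouts minus controls; limma-trend, adjusted p = 0.0137). In controls all 3 TAC libraries lay above all 3 sham libraries (as in 17.7% of tested genes), while in knockouts the 2 surgeries overlapped. Genes over 16 kb as a class had a median difference of −0.58 in the same test, and Ttn was second lowest among 291 of them, after Neb.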

How the results depend on the processing

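With the length trend removed, 4 of the 9 genes were called for TAC in controls in place of 7, also with the trend on the longest transcript or with lengths uncapped. Over all genes, removal of the length trend left 774 of 13906 called higher for TAC in controls, in place of 1533 of 13916. With the length and GC trend removed Nebl (adjusted p = 0.189) and Myom1 (0.131) lost their calls there, and Mybpc3 kept its call. For TAC in knockouts the count of 0 became 1 with DESeq2, 2 with voom and 1 with only the groups compared. Between genotypes after TAC the count of 2 became 4 with voom, 4 with only the groups compared, 3 with edgeR, DESeq2 or a pseudocount of 5 (Neb gained), 3 without both libraries that stand apart (Nebl gained), 1 with length and GC trend removed and 1 with the trend on the longest transcript (Nrap lost in both), and 1 to 4 when a library was left out. For the difference of TAC effects the count of 1 became 3 with DESeq2, 5 with voom, 0 with lengths uncapped, 4 without both libraries that stand apart (a setting added after the data were seen, like the uncapped one), and 0 to 4 when a library was left out; it was 0 in the absence of either control TAC replicate 2 or control sham replicate 3, and 4 without control sham replicate 1. Over all genes that test called 43, 40 with edgeR, 463 with DESeq2 and 1573 with voom. It called 1143 without both libraries that stand apart and 755 without control sham replicate 1. TAC in knockouts called 1, 1, 23 and 843, and 32 with only the groups compared. The genotypes after TAC called 1145, 1228 with edgeR, 1701 with DESeq2 and 3812 with voom. There 1430 were called with only the groups compared, 1191 with a pseudocount of 5 and 3310 without both libraries that stand apart.

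Small changes turned sign in some settings. For TAC in knockouts Mybpc3 was −0.0019 with voom and −0.023 without both libraries that stand apart, and with a library left out Ttn ran from −0.43 to 0.076, Myom2 from −0.0053 to 0.24 and Mybpc3 from −0.023 to 0.057. Between genotypes after TAC, Myom1 was 0.15 with the length trend removed, capped or not, 0.18 with GC and 0.081 on the longest transcript; Ldb3 was 0.055, 0.071 and 0.12 in the same order; Mybpc3 was 0.036 on the longest transcript. With a library left out Myom2 ran there from −0.12 to 0.41, Mybpc3 from −0.16 to 0.096 and Ldb3 from −0.10 to 0.019. For the difference of TAC effects Myom2 was 0.035 with the length trend removed (0.034 uncapped, 0.014 with GC) and ran from −0.44 to 0.093 with a library left out. The causes were not tested.

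With a library left out, the Myom2 to Myom1 ratio differed by −0.20 to 0.033 between TAC and sham and by −0.014 to 0.24 between genotypes. The Neb to Nebl ratio differed by 0.96 to 1.56 between TAC and sham and by −0.51 to 0.086 between genotypes. The rho of length with TAC in knockouts was −0.013 on the longest transcript.

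Whether replicate numbers pair the libraries was not settled. Correlations of same-numbered deviations ran from −0.072 to 0.249, and 6 of 12 libraries correlated best with their own number. The highest value was between control sham replicate 3 and knockout TAC replicate 3, the libraries that stand apart. With the replicate number as a block, 7, 0, 0, 2 and 1 of the 9 genes were called in the 5 comparisons, as without it; with the length trend also removed, 5 were called in controls, and Myom1 (0.15), Ldb3 (0.055) and Myom2 (0.035) turned sign as above. Depth limits Neb, which had as few as 8 reads in a library.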
